A study of Mus musculus with 12 samples.

Results

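The Id proteins Id1, Id2, Id3 and Id4 were examined together with 4 basic helix-loop-helix (bHLH) inhibitors of the myogenic factors, Twist1, Twist2, Msc and Bhlhe41, and with the 2 E proteins Tcf3 and Tcf12. The members were the array probes whose gene symbol in the deposited table is 1 of these 10 genes, which gave 18 of the 56605 probes on the array. C2C12, an immortalised myoblast line from C3H mouse muscle that fuses into myotubes when serum is withdrawn, was transfected with the control RNA siControl or with siBach1, 1 of the small interfering RNAs that the study used against Bach1, and every group was the same unmodified line. RNA was taken at day 0, before differentiation was induced, or at day 2 of differentiation, when confluent cultures had been moved to medium with horse serum 24 hours after transfection, and 3 arrays were hybridised for each of the 4 conditions. The study's methods call the array experiments triplicate without saying whether the 3 replicates were separate cultures, so the p-values measure the spread between these samples, which may be technical.

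Myogenic bHLH factors such as MyoD and myogenin bind DNA at E-boxes as dimers with an E protein. Id proteins have the dimerisation part of a bHLH factor but no basic region that contacts DNA, and they hold E proteins in dimers that cannot bind. In myoblasts, Id proteins and repressors such as Twist and musculin (Msc, also called MyoR) are known to hold back muscle genes until differentiation begins, and Id genes are classic targets of bone morphogenetic protein (BMP) signalling.

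Levels below are log2 of the scanner's background-subtracted signal minus the 75th percentile of that array, so that 0 is the level of the 75th percentile and a difference of 1 is a 2-fold difference. They are compared within a probe and never between probes. The scanner flagged between 47.6% and 58.9% of the probes of an array as well above background. A probe entered the limma test where all 3 arrays of some condition carried that flag, which held for 29664 probes, and was said to change where the Benjamini-Hochberg adjusted p over all of them was under 0.05. Of the members, 14 probes of 8 genes were tested. Bach1, the silenced gene, fell by 1.77 at day 0 and by 1.97 at day 2 in siBach1 cells (SE 0.11, limma adjusted p = 1.2e-05 and 1.4e-05, n = 3 per condition). All 7 differentiated muscle markers on the array rose in both siRNA groups, and their summed linear level relative to the 75th percentile went from 47.8 to 69 at day 0 to 1697 to 1850 at day 2 in siControl cells, and from 44.4 to 63.3 to 1086 to 1295 in siBach1 cells. The summed level of the 6 myoblast markers went from 322 to 369 at day 0 to 393 to 417 at day 2 in siControl cells, with Cdh15, Des and Myod1 rising, and from 399 to 439 to 370 to 381 in siBach1 cells, with Des rising and Vim falling. The endothelial markers Cdh5, Kdr and Tek were not well above background on any array. Pecam1, the remaining endothelial marker, was dim, with a mean level of -3.35 in siControl cells at day 0, and passed in no comparison. Cultures hold cells at several stages, and fewer cells of a stage and less RNA per cell cannot be told apart. The arrays of a condition always sat in the same column of a slide, so position and condition cannot be told apart.

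The Id2, Id3, Twist2 and Tcf3 genes, whose RNA was lower at day 2, and Bhlhe41, whose RNA was higher in siBach1 cells at day 0, are shown by the 250 bases before their RefSeq start site. The sequences are those of RefSeq on build GRCm38.p6, read 5′ to 3′ on the strand of the gene, with capitals marking every E-box (CANNTG on either strand). The RefSeq table used here had such a window for 8 of the 10 genes, and those for Id1 and Msc are named only.
Id2, chr12:25096093-25096342, minus strand: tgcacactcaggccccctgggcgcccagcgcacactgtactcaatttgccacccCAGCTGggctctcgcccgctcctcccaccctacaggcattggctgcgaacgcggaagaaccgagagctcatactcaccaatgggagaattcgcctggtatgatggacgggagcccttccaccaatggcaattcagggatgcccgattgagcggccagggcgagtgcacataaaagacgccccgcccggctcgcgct
Id3, chr4:136143572-136143821, plus strand: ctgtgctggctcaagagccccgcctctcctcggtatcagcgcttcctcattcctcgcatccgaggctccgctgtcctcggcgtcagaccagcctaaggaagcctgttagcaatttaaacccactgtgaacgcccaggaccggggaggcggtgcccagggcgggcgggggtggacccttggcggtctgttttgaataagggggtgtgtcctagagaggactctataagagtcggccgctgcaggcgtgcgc
Twist2, chr1:91801211-91801460, plus strand: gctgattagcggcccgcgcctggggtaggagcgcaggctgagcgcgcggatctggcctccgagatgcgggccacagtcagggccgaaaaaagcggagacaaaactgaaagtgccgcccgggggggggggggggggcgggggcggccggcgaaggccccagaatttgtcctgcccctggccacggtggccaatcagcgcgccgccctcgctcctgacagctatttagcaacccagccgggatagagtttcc
Tcf3, chr10:80433636-80433885, minus strand: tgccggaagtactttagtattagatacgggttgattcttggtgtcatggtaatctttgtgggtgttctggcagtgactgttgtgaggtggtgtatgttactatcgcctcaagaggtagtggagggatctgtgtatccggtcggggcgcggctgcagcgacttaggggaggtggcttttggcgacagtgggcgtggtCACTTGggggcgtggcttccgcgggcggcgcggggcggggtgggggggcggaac
Bhlhe41, chr6:145865421-145865670, minus strand: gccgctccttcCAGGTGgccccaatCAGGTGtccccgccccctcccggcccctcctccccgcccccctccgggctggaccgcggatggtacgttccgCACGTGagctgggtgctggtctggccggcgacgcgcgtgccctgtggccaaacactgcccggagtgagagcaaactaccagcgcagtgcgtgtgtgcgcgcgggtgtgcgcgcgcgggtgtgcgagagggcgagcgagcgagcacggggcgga
Bhlhe41 held 3 E-boxes, which begin 239, 225 and 153 bases before the start, Id2 held 1 and Tcf3 held 1, while the letters CANNTG were not in the windows of Id3 and Twist2. Of all 32851 windows in the table, 66.2% held at least 1 CANNTG. The Id2 E-box reads CAGCTG, which 13% of all windows held and which is 1 of the forms counted as CANNTG. The letters TGACTCA, the core of the element bound by Bach1 with small Maf proteins, were in none of the windows of the members on either strand and in 4.46% of all windows. These are matches of letters only.

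Differentiation of siControl cells was accompanied by lower Id and Twist2 RNA and by a smaller fall of Tcf3. Of the 14 tested probes, 8 (57.1%) were lower at day 2 and 2 (14.3%) were higher, where 28.7% of all tested probes were lower and 24.6% were higher. The 8 probes belonged to Id1, Id2, Id3, Twist2, Msc and Tcf3. They include the dim Id2 probe A_52_P94071, which entered the test only through its day 0 arrays. Requiring probes well above background on all 12 arrays left out this probe and the Tcf12 probe A_55_P2717907. The count of lower probes was then 7 in siControl and 6 in siBach1 cells, where 8018 and 9180 of all 24802 such probes were lower. The 2 that rose belonged to Bhlhe41 and Tcf12. The median log2 change was -0.70 over the 14 probes and 0.00 over all tested probes. In siBach1 cells 7 (50%) of the 14 were lower and 1 (7.14%) was higher, beside 32.3% and 23.8% of all tested probes, and the median change was -0.70 over the 14 and -0.07 over all.

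**Figure D1:**
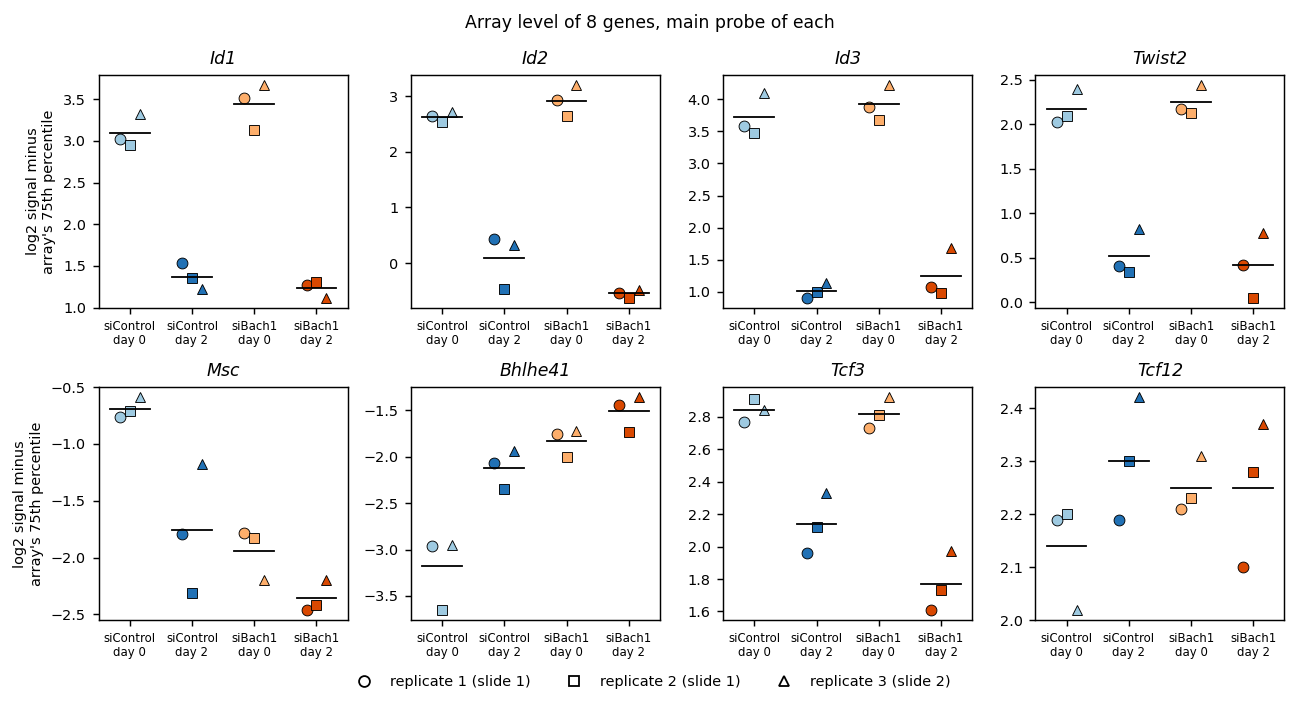
Level of the main probe of each tested gene (y axis, log2 signal minus the array's 75th percentile) in each of the 12 arrays, by siRNA and day (x axis). Each symbol is 1 array, its shape gives the replicate and slide, and the line is the mean of 3 arrays. Id1, Id2, Id3, Twist2 and Tcf3 lay lower at day 2 in both siRNA groups, while Msc and Bhlhe41 already differed between the siRNAs at day 0.

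Among the Id proteins, Id1 was read by 1 probe. In replicates 1, 2 and 3 its level was 3.02, 2.95 and 3.32 in siControl cells at day 0 and 1.53, 1.36 and 1.22 at day 2. In siBach1 cells it was 3.51, 3.13 and 3.67 at day 0 and 1.27, 1.31 and 1.12 at day 2. The arrays of day 2 were all lower than those of day 0, and within a day the arrays of the 2 siRNAs overlapped. The change from day 0 to day 2 was -1.73 in siControl and -2.20 in siBach1 cells (SE 0.15, limma adjusted p = 6.1e-06 and 1.3e-06). Within slide 1 the change was -1.54 and -2.02, and within slide 2 it was -2.10 and -2.55. The difference between siBach1 and siControl was 0.34 at day 0 (95% interval 0.00 to 0.68 before adjustment, limma adjusted p = 0.16) and -0.13 at day 2 (-0.47 to 0.21, adjusted p = 0.64). Without replicate 2 of siBach1 at day 0 the day 0 difference was 0.49 with an adjusted p of 0.049.

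Id2 had 2 probes. On the probe for the RefSeq transcript, its level was 2.65, 2.53 and 2.71 in siControl cells at day 0 and 0.43, -0.47 and 0.32 at day 2. With siBach1 the readings were 2.93, 2.64 and 3.20 at day 0 and -0.53, -0.62 and -0.48 at day 2. Day 0 and day 2 were well apart, the siRNAs overlapped at day 0, and at day 2 the 3 siBach1 arrays lay just below the lowest siControl array, with a gap of 0.01. With day, Id2 changed by -2.53 under siControl and by -3.47 under siBach1 (SE 0.22, limma adjusted p = 4.8e-06 and 6.5e-07). Within slide 1 these changes were -2.61 and -3.36, and within slide 2 they were -2.39 and -3.68. At day 2 the siBach1 cells were 0.63 lower (95% interval -1.12 to -0.15) with a limma adjusted p of 0.087, which was 0.024 with replicate as a block. The difference of the siRNA effect between the days was -0.93 (SE 0.31) with an adjusted p of 0.11, or 0.032 with the block and 0.056 with slide as the block. Replicate 2 of siControl at day 2 was the low array, and without it these values were -0.92 (adjusted p = 0.0072) and -1.21 (adjusted p = 0.022).

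The second Id2 probe, A_52_P94071, which the table ties to a cDNA clone, was dim. Its level was -3.29, -3.03 and -3.05 in siControl cells at day 0 and -3.96, -4.25 and -4.31 at day 2. Arrays of siBach1 cells read -2.97, -3.09 and -1.35 at day 0 and -4.48, -4.87 and -4.68 at day 2. All 6 arrays of day 0 but only 1 of 3 in each group of day 2 read it well above background, and replicate 3 of siBach1 at day 0 stood above the others. The probe changed by -1.05 in siControl cells (SE 0.37, limma adjusted p = 0.035) and by -2.20 in siBach1 cells (adjusted p = 0.00051). Within slide 1 the changes were -0.95 and -1.64, and within slide 2 they were -1.26 and -3.33. Its day 2 values lie near background and limit the size of the fall that it can show. The siControl call was lost when any 1 of the 6 siControl arrays was left out (adjusted p from 0.051 to 0.088), and with a normexp background correction the changes were -0.21 (adjusted p = 0.46) and -0.88. At day 2 its difference between the siRNAs was -0.50 (adjusted p = 0.43), which was 0.039 without replicate 3 of siBach1 at day 0.

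Id3 was read by 1 probe. Its level was 3.58, 3.47 and 4.10 in siControl cells at day 0 and 0.91, 1.00 and 1.13 at day 2. In siBach1 cells it was 3.88, 3.68 and 4.22 at day 0 and 1.08, 0.98 and 1.68 at day 2. The days were far apart and the siRNAs overlapped within each day. Its day change was -2.71 in siControl and -2.69 in siBach1 cells (SE 0.22, limma adjusted p = 3.5e-06 for each), with -2.57 and -2.75 within slide 1 and -2.97 and -2.55 within slide 2. The difference between siBach1 and siControl was 0.21 at day 0 (95% interval -0.28 to 0.70, adjusted p = 0.57) and 0.23 at day 2 (-0.26 to 0.72, adjusted p = 0.56). Id4 was not well above background on any of the 12 arrays, with a signal of 3.3 to 13.2 units, and was not tested.

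**Figure D2:**
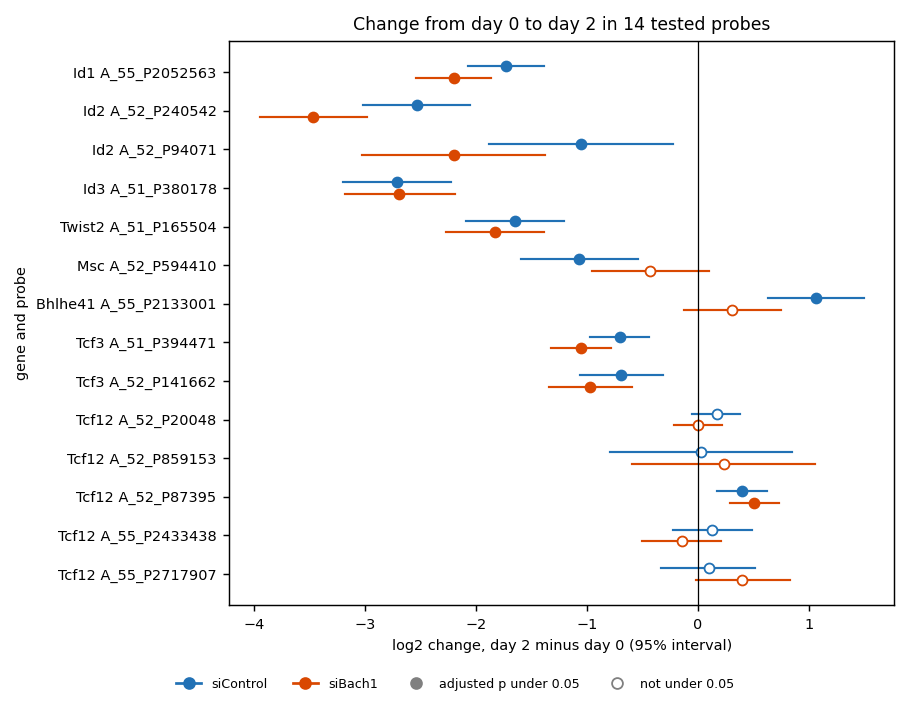
Log2 change from day 0 to day 2 (x axis) of the 14 tested probes of the members (y axis) in siControl and siBach1 cells. Points are limma estimates from 3 arrays per condition, lines are 95% intervals before adjustment, and filled points have an adjusted p under 0.05. The Id, Twist2 and Tcf3 probes lie left of 0 in both siRNA groups, and Bhlhe41 rose by 1.07 in siControl cells.

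Among the bHLH inhibitors, Twist2, a repressor that binds E proteins and counters MyoD, moved with day and showed little difference between the siRNAs. Its level was 2.02, 2.09 and 2.40 in siControl cells at day 0 and 0.41, 0.34 and 0.82 at day 2. Arrays of siBach1 cells gave 2.17, 2.13 and 2.44 at day 0 and 0.42, 0.05 and 0.78 at day 2. The 2 days did not overlap, and within a day the siRNAs did. Twist2 changed by -1.65 with day under siControl and by -1.83 under siBach1 (SE 0.20, limma adjusted p = 4.8e-05 and 2.2e-05), with -1.68 and -1.91 within slide 1 and -1.58 and -1.66 within slide 2. The difference between siBach1 and siControl was 0.08 at day 0 (95% interval -0.36 to 0.51) and -0.10 at day 2 (-0.54 to 0.33), with adjusted p of 0.84 and 0.8. Twist1 was not well above background on any array, with a signal of 2.6 to 5.7 units.

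Msc, the repressor known from undifferentiated myoblasts, was lower in siBach1 cells before differentiation was induced. Its level was -0.76, -0.71 and -0.59 in siControl cells at day 0 and -1.79, -2.31 and -1.18 at day 2. In siBach1 cells it was -1.78, -1.83 and -2.20 at day 0 and -2.46, -2.42 and -2.20 at day 2. The siControl arrays of day 0 stood above all others, while siControl at day 2 and siBach1 at day 0 overlapped. At day 0 Msc was 1.25 lower in siBach1 cells (SE 0.24, limma adjusted p = 0.0054), by -1.07 within slide 1 and -1.61 within slide 2. In siControl cells it fell by 1.07 from day 0 to day 2 (adjusted p = 0.0031), by -1.31 within slide 1 and -0.58 within slide 2. In siBach1 cells the change with day was -0.43 (95% interval -0.95 to 0.10, adjusted p = 0.15), and the difference between these changes, 0.64 (SE 0.33), had an adjusted p of 0.3. At day 2 the siBach1 cells were 0.61 below siControl cells (95% interval -1.13 to -0.08) with an adjusted p of 0.13. That value was -0.88 without replicate 2 of siControl at day 2 (adjusted p = 0.021), and without replicate 3 of that group the day change in siBach1 cells had an adjusted p of 0.044. With a normexp background correction the day 0 difference was -0.82 (adjusted p = 0.0017), and the methods' t-test after Benjamini-Hochberg gave 0.064 for the fall in siControl cells.

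Bhlhe41, also called Sharp1 or DEC2, is a repressor that counters MyoD, and it went the other way. Its tested probe was dim, with a signal of 40.3 to 158.8 units, and was flagged well above background on all 12 arrays. On this probe the level was -2.96, -3.65 and -2.95 in siControl cells at day 0 and -2.07, -2.35 and -1.94 at day 2. Under siBach1 the level was -1.75, -2.0 and -1.72 at day 0 and -1.44, -1.73 and -1.36 at day 2. The siControl arrays of day 0 were the lowest 3 of the 12 and the siBach1 arrays were higher than those of siControl on each day, without overlap. At day 0 Bhlhe41 was 1.36 higher in siBach1 cells (SE 0.20, limma adjusted p = 0.0012), by 1.43 within slide 1 and 1.22 within slide 2. It rose by 1.07 from day 0 to day 2 in siControl cells (adjusted p = 0.00092), by 1.10 and 1.01 within the slides. In siBach1 cells the day change was 0.31 (95% interval -0.12 to 0.75) with an adjusted p of 0.2, or 0.019 with replicate and 0.13 with slide as a block. At day 2 the siBach1 cells were 0.60 above siControl cells (0.17 to 1.04) with an adjusted p of 0.073, or 0.0048 with the block and 0.027 without replicate 2 of siControl at day 0. The difference of the siRNA effect between the days was -0.75 (SE 0.28, adjusted p = 0.15, or 0.015 with replicate and 0.066 with slide as a block). A normexp background correction gave 0.83 for the day 0 difference and 0.67 for the rise in siControl cells, and the methods' t-test gave an adjusted p of 0.05 at day 0. A second probe, for another Bhlhe41 transcript, was not well above background on any array, with a signal of 2.7 to 13.3 units.

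**Figure D3:**
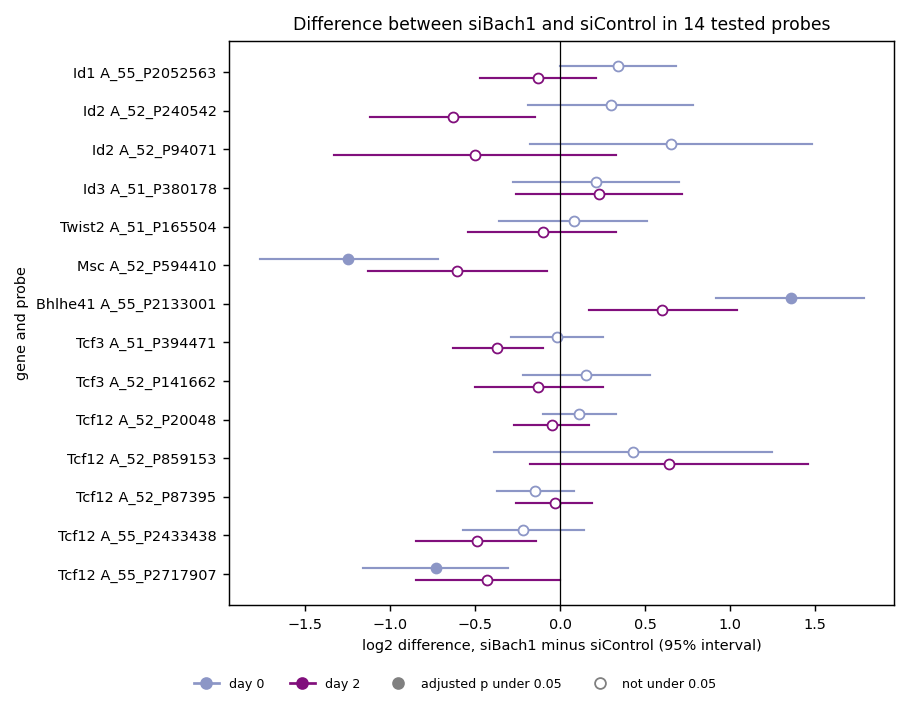
Log2 difference between siBach1 and siControl cells (x axis) of the 14 tested probes of the members (y axis) at day 0 and at day 2. Points are limma estimates from 3 arrays per condition, lines are 95% intervals before adjustment, and filled points have an adjusted p under 0.05. At day 0 Bhlhe41 was 1.36 higher and Msc 1.25 lower in siBach1 cells, and at day 2 no point is filled.

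Of the E proteins, Tcf3, which encodes E12 and E47 (E2A), fell with differentiation on both of its probes. On the brighter probe its level was 2.77, 2.91 and 2.84 in siControl cells at day 0 and 1.96, 2.12 and 2.33 at day 2. Under siBach1 the readings were 2.73, 2.81 and 2.92 at day 0 and 1.61, 1.73 and 1.97 at day 2. The days were apart and the siRNAs overlapped on each day, at day 2 by 0.01. The day change on this probe was -0.70 in siControl and -1.05 in siBach1 cells (SE 0.12, limma adjusted p = 0.00057 and 3.4e-05), with -0.80 and -1.10 within slide 1 and -0.51 and -0.95 within slide 2. At day 2 it was 0.37 lower in siBach1 cells (95% interval -0.63 to -0.10) with an adjusted p of 0.076, or 0.014 with replicate as a block and 0.046 without replicate 3 of siBach1 at day 2. At day 0 the difference was -0.02 (-0.29 to 0.25). On the second probe the day change was -0.69 in siControl and -0.97 in siBach1 cells (SE 0.17, limma adjusted p = 0.0057 and 0.00063). The levels of that probe over the 12 arrays ran from -1.74 to -0.40. Within slide 1 those changes were -0.88 and -1.15, and within slide 2 they were -0.30 and -0.59. The methods' t-test gave the fall in siControl cells an adjusted p of 0.054. Its difference between the siRNAs at day 2 was -0.13 (95% interval -0.50 to 0.25).

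Tcf12, the E protein HEB, was read by 6 probes that the table ties to several transcripts, and they did not move as 1. On the brightest probe its level was 2.19, 2.20 and 2.02 in siControl cells at day 0 and 2.19, 2.30 and 2.42 at day 2. Under siBach1 it read 2.21, 2.23 and 2.31 at day 0 and 2.10, 2.28 and 2.37 at day 2. All 12 values lay between 2.02 and 2.42, and the day change was 0.17 in siControl cells (95% interval -0.05 to 0.38, limma adjusted p = 0.18, or 0.26 with an adjusted p of 0.036 under quantile normalization) and 0.00 in siBach1 cells (-0.21 to 0.22). The other probe of the same RefSeq transcript, A_55_P2433438, lay between 1.48 and 2.34 and changed with day by 0.13 and -0.14 (adjusted p = 0.51 and 0.49). At day 2 it was 0.49 lower in siBach1 cells (-0.85 to -0.14, adjusted p = 0.073, or 0.029 with replicate as a block and 0.035 without replicate 2 of siBach1 at day 2).

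The probe A_52_P87395, placed on an Ensembl transcript of Tcf12, read -1.19, -1.13 and -0.98 in siControl cells at day 0 and -0.73, -0.77 and -0.59 at day 2. With siBach1 the probe read -1.10, -1.30 and -1.34 at day 0 and -0.73, -0.84 and -0.63 at day 2. The days did not overlap, and it rose by 0.40 under siControl and 0.51 under siBach1 (SE 0.10, limma adjusted p = 0.0065 and 0.0014), with 0.41 and 0.41 within slide 1 and 0.38 and 0.71 within slide 2. The probe A_55_P2717907, placed on another Ensembl transcript, read -2.81, -2.87 and -2.91 in siControl cells and -3.18, -3.85 and -3.76 in siBach1 cells at day 0. It was 0.73 lower in siBach1 cells at day 0 (SE 0.19, adjusted p = 0.025), by -0.68 within slide 1 and -0.85 within slide 2. That call was lost without replicate 1, 2 or 3 of siControl at day 0 (adjusted p = 0.078, 0.072 and 0.054), without replicate 2 or 3 of siBach1 at day 0 (0.084 and 0.085) and with a normexp correction (-0.16, adjusted p = 0.32). At day 2 the difference on this probe was -0.43 (adjusted p = 0.18, or 0.034 with replicate and 0.11 with slide as a block), and its day change in siBach1 cells was 0.40 (adjusted p = 0.098, or 0.015 with replicate and 0.07 with slide as a block), which was 0.61 without replicate 1 of siBach1 at day 0 (adjusted p = 0.012). The probe for a cDNA clone ranged from -3.08 to -1.34 and had no adjusted p under 0.05 in any comparison, and the last, flagged above background on 5 of 12 arrays, was not tested.

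**Figure D4:**
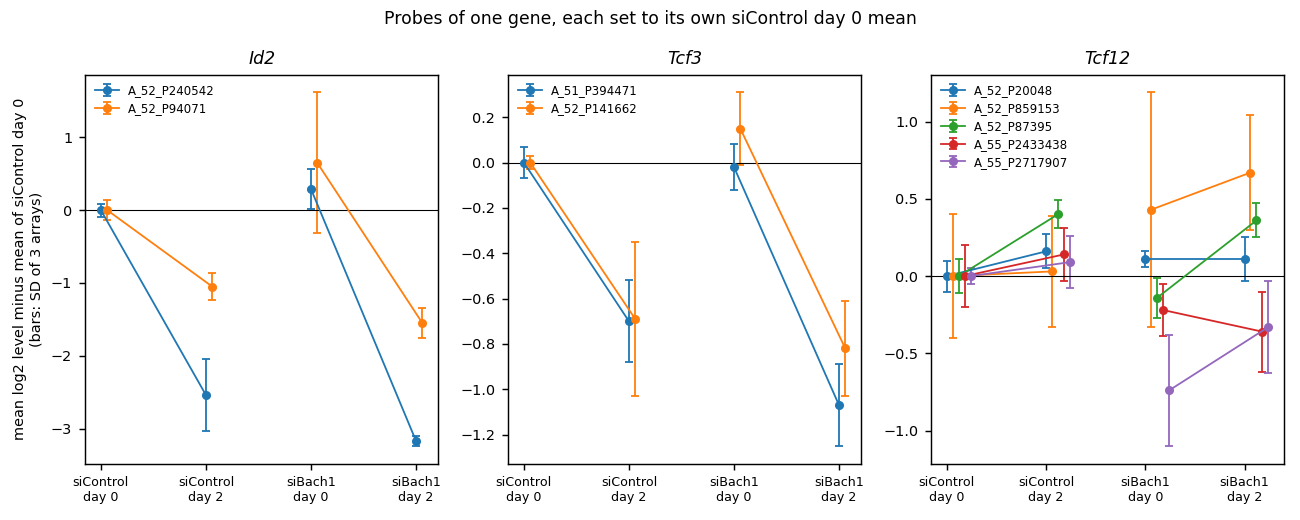
Mean level of each tested probe of Id2, Tcf3 and Tcf12 minus its own siControl day 0 mean (y axis, log2) in the 4 conditions (x axis), with bars of 1 SD over 3 arrays and lines joining the days of 1 siRNA. The Tcf3 probes changed at day 2 by -0.70 and -0.69 in siControl cells, the Id2 probe A_52_P94071 was mostly not above background at day 2, which limits the fall it can show, and of the Tcf12 probes A_52_P87395 rose with day by 0.40 and 0.51.

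For the effect of silencing over all members, 1 (7.14%) of the 14 probes was higher and 2 (14.3%) were lower in siBach1 cells at day 0, where 8.8% of all tested probes were higher and 8.32% lower. The lower probes were those of Msc and the dim Tcf12 probe A_55_P2717907. Only 1 was lower under normexp or among probes well above background on all 12 arrays, beside 2297 of 29664 and 2379 of 24802 probes. At day 2 limma called 0 probes of members in either direction, where 5.75% of all tested probes were higher and 6.26% lower. At an unadjusted p under 0.05, 1 probe was higher and 5 were lower at day 2, beside 12.7% and 14.6% of all tested probes, and the methods' t-test after Benjamini-Hochberg called 0, beside 1.59% and 2.11% of all. With replicate as a block, 1 was higher (Bhlhe41) and 4 were lower (Id2, Tcf3 and 2 of Tcf12), where the block called 9.78% of all tested probes higher and 11.6% lower. For the difference of the siRNA effect between the days, limma called 0 probes of members in either direction, beside 2.39% and 2.2% of all tested probes. At an unadjusted p under 0.05, 0 were higher and 2 lower, beside 8.89% and 12.9% of all. With the block 0 were higher and 2 lower (Id2 and Bhlhe41), beside 5.16% and 7.86% of all. The block also called 3 probes of members higher from day 0 to day 2 in siBach1 cells, where it called 27.5% of all. The comparisons at the 2 days and those of the 2 siRNAs share arrays, so their values for a member are given side by side and not correlated.

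The partners of these proteins are the 4 myogenic bHLH factors. Myog, which encodes myogenin, read 2.79, 2.52 and 1.99 in siControl cells at day 0 and 7.31, 7.43 and 7.11 at day 2. With siBach1 it read 2.87, 2.56 and 2.19 at day 0 and 6.42, 6.33 and 6.18 at day 2. It rose by 4.85 and 3.77 (SE 0.21, limma adjusted p = 7.4e-08 and 3.6e-07), and at day 2 it was 0.98 lower in siBach1 cells (adjusted p = 0.016, 0.055 without replicate 3 of siBach1 at day 2, 0.053 without replicate 1 of siControl at day 2 and 0.062 with no filter). The difference of its siRNA effect between the days was -1.08 (adjusted p = 0.071, or 0.012 with replicate as a block). Myod1, which encodes MyoD, had a mean level of 3.20, 3.61, 3.33 and 3.13 in siControl at day 0 and day 2 and siBach1 at day 0 and day 2. Myod1 rose by 0.42 in siControl cells (SE 0.13, adjusted p = 0.018), but not without replicate 1 of either siControl day (0.074 and 0.062). It was 0.48 lower in siBach1 cells at day 2 (adjusted p = 0.036, and 0.058 to 0.11 when any 1 of the 6 arrays of day 2 was left out). With no filter the 2 Myod1 calls had an adjusted p of 0.062 and 0.14, by the methods' t-test 0.07 and 0.052, and the second had 0.072 under quantile normalization. Myf6, which encodes MRF4, was dim and rose by 0.57 in siControl cells (SE 0.21, adjusted p = 0.04), a call lost without replicate 2 or 3 of siControl at day 0 (0.11 and 0.14), replicate 2 of siControl at day 2 (0.38, adjusted p = 0.15), or replicate 1 or 3 of siBach1 at day 2 (0.053 and 0.05). The Myf6 probe entered the test only through its day 2 arrays, so the filter itself favours a rise with day. In each day 0 group it was well above background on 2 of 3 arrays. The arrays of the 2 days overlapped, and the Myf6 call was also lost under quantile normalization (0.13), with no filter (0.099), with the arrays of the comparison alone (0.086), with a trend and robust prior (0.078) and under the methods' t-test (0.17). Its difference between the siRNAs at day 0 was 0.60 (adjusted p = 0.078, or 0.039 with replicate as a block). Myf5 was flagged above background on 2 of 3 arrays in each condition and so was not tested. Its level was -5.67, -6.49, -4.19 and -6.05 on the replicate 3 arrays of slide 2 and between -2.98 and -1.06 on the 8 arrays of slide 1.

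**Figure D5:**
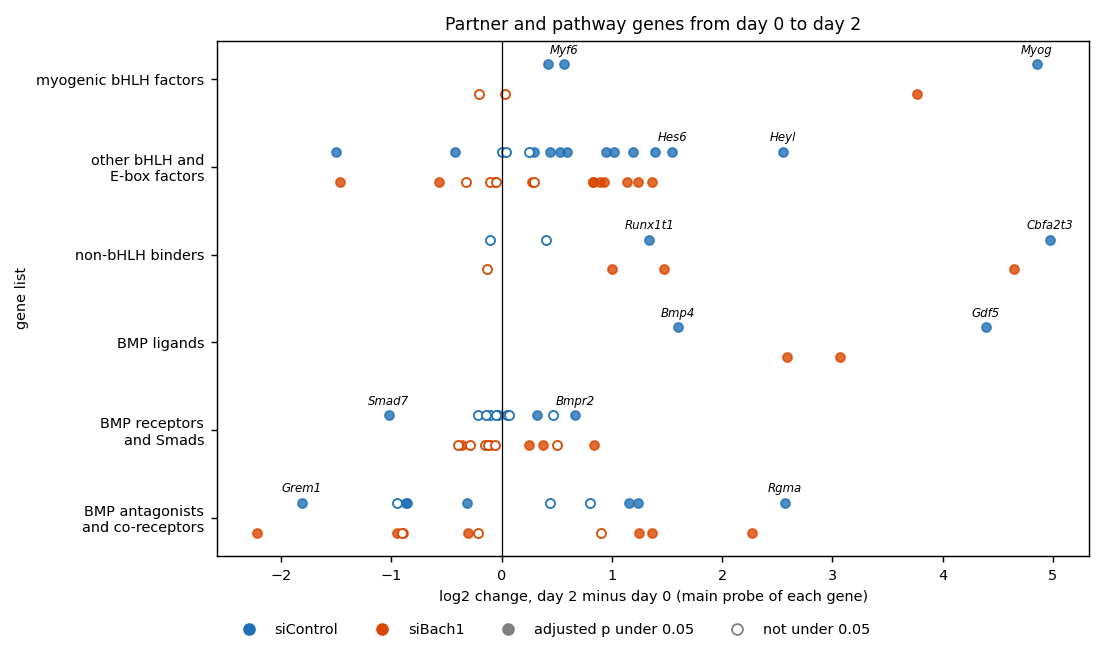
Log2 change from day 0 to day 2 (x axis) of the tested genes of 6 lists (y axis) in siControl and siBach1 cells, 1 main probe per gene. Filled points have a limma adjusted p under 0.05, and the 2 genes with the largest change in siControl cells are named per list. Myog, Cbfa2t3 and Gdf5 rose by more than the others, by 4.85, 4.97 and 4.39 in siControl cells.

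Of 15 tested genes among 23 other bHLH and E-box factors, 10 rose and 2 fell in siControl cells, with a median change of 0.53 beside 0.01 over all genes, of which 27.7% rose and 30.1% fell on their main probe. Heyl, a Notch-responsive repressor, rose by 2.55 (SE 0.36), Hes6, which promotes differentiation, by 1.55 (SE 0.12), and Myc fell by 1.50 (SE 0.17). At day 0, Hey1 was 0.78 higher (SE 0.13, limma adjusted p = 0.003), Mxi1 0.48 higher (SE 0.07, adjusted p = 0.00084) and Snai2, an E-box repressor, 0.98 lower (SE 0.11, adjusted p = 0.0003) in siBach1 cells. Zeb1 was 0.37 higher at day 0 (adjusted p = 0.043, a call kept in 2 of 12 fits that left out 1 array), and Scx 0.81 lower at day 2 (adjusted p = 0.0034). By the methods' t-test the adjusted p was 0.059 for Hey1 at day 0, 0.07 for Zeb1 and 0.079 for Scx, and without a filter on dim probes it was 0.17 for Zeb1. Of the 4 non-bHLH proteins that bind myogenic bHLH factors or E proteins, Cbfa2t3 and Runx1t1, corepressors of the ETO family, rose by 4.97 and 1.34 in siControl cells (adjusted p = 5.8e-07 and 0.0004). Mdfi, which encodes I-mfa, an inhibitor of MyoD family factors, was dim and 1.11 lower in siBach1 cells at day 0 (SE 0.25, adjusted p = 0.013). That call was lost under normexp (-0.13, adjusted p = 0.51), with the arrays of the comparison alone (0.065), under the methods' t-test (0.15) and without replicate 1 of siControl at day 0 (0.053).

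The BMP pathway was counted because it drives Id genes, and its counts in siControl cells stand beside 27.7% of all genes higher and 30.1% lower. Of its 8 ligands on the array 2 were tested and both rose in siControl cells, Gdf5 by 4.39 (SE 0.31, limma adjusted p = 1.5e-06) and Bmp4 by 1.60 (SE 0.40, adjusted p = 0.006). At day 2 Gdf5 was 1.43 lower in siBach1 cells (adjusted p = 0.017). That call was kept in 9 of 12 fits that left out 1 array, and lost under the methods' t-test (0.091) and with no filter on dim probes (0.059). Of 11 tested receptors and Smads, 2 rose (Bmpr1a and Bmpr2, by 0.32 and 0.67), 1 fell (the inhibitory Smad7, by 1.02) and 8 did not pass in siControl cells. With replicate as a block, under which 29.7% of all tested probes were higher and 33% lower, 3 rose and 2 fell, the added genes being Acvrl1 (0.47, adjusted p = 0.22 without and 0.03 with the block) and Acvr1. These genes were counted on 1 main probe each, unlike the shares under the block, which are over all tested probes. Smad5, a carrier of the BMP signal, was 0.45 lower in siBach1 cells at day 0 (SE 0.08, adjusted p = 0.0055). Of 10 tested antagonists and co-receptors 3 rose and 4 fell (4 and 5 with the block, which added Chrd and Crim1), with Grem1, a secreted BMP antagonist, falling by 1.81 and the co-receptor Rgma rising by 2.57. Fstl1, a secreted BMP-binding protein, rose by 1.24 (SE 0.09) and was 0.31 lower in siBach1 cells at day 0 (adjusted p = 0.033, kept in 7 of 12 fits that left out 1 array). In siBach1 cells Rgmb was 0.73 higher at day 0 and 0.82 higher at day 2 (SE 0.11, adjusted p = 0.0012 and 0.0015). At day 2 Grem1 was 0.69 lower (adjusted p = 0.01) and Rgma 0.41 lower (adjusted p = 0.03, kept in 6 of 12 fits that left out 1 array, 0.087 under quantile normalization and 0.13 with no filter). By the methods' t-test the adjusted p at day 2 was 0.078 for Grem1 and 0.059 for Rgmb, and at day 0 it was 0.072 for Fstl1, whose call was also lost with no filter (0.17) and with the arrays of the comparison alone (0.081).

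Markers of other cell types were summed in the same way, and the sums of the 2 days did not overlap for adipocyte markers in either siRNA group and for macrophage and leukocyte markers in siBach1 cells. Over siControl cells at day 0 and day 2, the summed linear level ran from 4.83 to 5.81 and from 2.02 to 2.93 for the 4 adipocyte markers, with Adipoq and Cfd not well above background on any array and Pparg falling by 1.19 (limma adjusted p = 0.00013). It ran from 7.02 to 7.99 and from 4.93 to 7.22 for the 4 macrophage and leukocyte markers, with 3 of them flagged above background on each of the 12 arrays and Adgre1 on none. The corresponding ranges in siBach1 cells were 4.89 to 6.91 and 2.85 to 3.4, and 8.13 to 8.94 and 4.66 to 7.43. With day, Cd68 and Ptprc changed by -1.14 and -0.79 under siControl (limma adjusted p = 1.4e-05 and 0.0062). Under siBach1 they changed by -0.50 and -0.70 (adjusted p = 0.0035 and 0.011), while Csf1r passed in neither group. Between the siRNAs at day 0, Cd68 differed by -0.48 (adjusted p = 0.018). Fabp4, the remaining adipocyte marker, was dim, with a mean level of -3.90 in siControl cells at day 0, beside 2.34 for Pparg. Fabp4 passed with day in neither group, so the adipocyte sums mostly follow Pparg. Such sums do not count cells of a type. The part of these markers in the falls of the Id genes and Twist2 was not tested. For the 5 osteoblast markers the sums were 1.29 to 1.68 and 1.37 to 1.89 in siControl cells and 1.54 to 1.9 and 1.54 to 2.28 in siBach1 cells. Among them the dim Bglap, which encodes osteocalcin, rose with day by 0.89 under siControl and 2.58 under siBach1 (SE 0.33, adjusted p = 0.042 and 7.2e-05) and was 1.90 higher in siBach1 cells at day 2 (adjusted p = 0.0057), while Runx2 changed by -0.56 and -0.91 with day (adjusted p = 0.016 and 0.00085).

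The genes whose profile over the 12 arrays was most like that of a member were taken among 13547 other genes well above background on every array, by the smallest root mean square difference of profiles centred on their own mean. Nearest to Id1 were 2610201A13Rik, Hspd1 and Cmss1, at 0.199, 0.210 and 0.224 (Pearson's r 0.98, 0.98 and 0.97). Nearest to Id2 were Gm5593, Trip13 and Wwc1, at 0.291, 0.312 and 0.322, and nearest to Id3 were G6pdx, 9530053A07Rik and Col7a1, at 0.251, 0.259 and 0.266. Twist2 lay nearest to Ptbp1, Cad and Pop1, at 0.117, 0.127 and 0.128, and Tcf3 nearest to Smarca5, Oard1 and Mrps27, at 0.066, 0.084 and 0.087. Msc lay nearest to Kif1a, Dzip3 and Isy1 (0.154, 0.184 and 0.185), and Bhlhe41 nearest to Slc44a2, Slc37a2 and Jag1 (0.213, 0.230 and 0.231), with r between 0.94 and 0.97. Tcf12, whose main probe did not pass in siControl cells, had its nearest genes at r 0.69 to 0.78. The 12 arrays fall into 4 conditions, so these likenesses mostly reflect condition means and are given as a description.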

How the data were processed

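RNA of C2C12 cells was labelled with Cyanine 3 and hybridised to 12 one-colour Agilent mouse arrays. The authors deposited the scanner's spot intensity after background subtraction, with median signals and flags, and a table of normalized log2 values, which the authors centred on the array's 75th percentile and the probe's median and which matched the scanner values to 0.00449 over 56253 probes. The file headers name Feature Extraction 10.7.3.1 and the submitters' processing notes version 9.1. The study's methods name GeneSpring.

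Control spots and 76 to 110 outlier spots per array were left out (none was saturated), repeated spots were averaged in log2 and the 75th percentile was subtracted. The 4 conditions were fitted together in limma 3.58.1 (R 4.3.3) on 29664 probes, and p-values were adjusted over all of them. Files were read with Python 3.11.15 and pandas 2.3.3. On simulated data for siBach1 against siControl at day 2, in which 200 probes were changed, 70% of those changed by 1 and 87% of those changed by 2 (log2) were called. There were 8 false calls. The simulated noise was independent between arrays, while the real arrays deviated together by replicate and slide, so these figures need not hold for the data. The main probe of a gene is its tested probe with the highest mean. Besides all members, the myogenic factors and Bach1, the text names up to 3 genes per list with the largest change in siControl cells and genes that passed for the siRNA. Of the 18 probes, 14 had an accession found under the same symbol in the RefSeq table.

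Arrays with the same replicate number deviated together in all 18 pairs (r from 0.142 to 0.595, limit 0.1), so replicate numbers were read as a pairing. The main fit has no block and ignores that pairing. The fit with replicate as a block is given beside it where a call of a member changed. The 12 pairs with different numbers on the same slide had r from 0.1 to 0.264 and the 24 on different slides r from -0.442 to -0.239, so part of the likeness follows the slide. Equal numbers also mean the same row of a slide, and the 2 cannot be told apart. The scanner files used here gave median signals, so normexp (offset 50) was run on those. The members and lists were chosen with earlier results of these data known. With 3 arrays per condition, precision is limited by their number.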

Additional observations from a re-analysis of the deposited data

Results flagged for a closer look

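The effect of siBach1 differed between the days by the test of that difference (limma, adjusted over all tested probes) for 3 of the 15 tested other bHLH and E-box factors, 1 higher and 2 lower, where 2.39% of all tested probes were higher and 2.2% lower. With replicate as a block 1 was higher and 4 were lower, beside 5.16% and 7.86% of all. The factors were counted on 1 main probe per gene and these shares over all tested probes, so the units differ. The difference of the siRNA effect, day 2 minus day 0, was -0.91 for Hey1 (adjusted p = 0.026, kept in 3 of 12 fits that left out 1 array). It was -0.54 for Mxi1 (adjusted p = 0.015, kept in 12 of 12 but not under normexp, where it was -0.41 with an adjusted p of 0.053) and 0.67 for Snai2 (adjusted p = 0.042, kept in 1 of 12). With no filter on dim probes none of the 3 kept its call (adjusted p = 0.13 for Hey1 and Mxi1 and 0.2 for Snai2).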

How the results depend on the processing

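The falls of Id1, Id2 (RefSeq probe), Id3, Twist2 and Tcf3 (brighter probe) from day 0 to day 2 kept their direction and an adjusted p under 0.05 under every alternative run, in both siRNA groups. With replicate as a block, 9 of 70 values of members crossed the threshold, all given beside their results, and the block changed no other call of a member. The block gave 3 member probes higher from day 0 to day 2 in siBach1 cells in place of 1, 1 higher and 4 lower for siBach1 at day 2 in place of 0, and 2 lower for the difference between days in place of 0, and it raised the calls over all tested probes as well, from 1705 higher and 1858 lower to 2902 and 3429 at day 2. Among the other genes listed it added Sim2 and Bhlhe40 as lower and Smad6 as higher in siBach1 cells at day 2, and Sim2 as lower and Acvr1, Smad6 and Neo1 as higher at day 0, Bhlhe40 and Scx as lower for the difference between days, and Acvrl1, Chrd and Crim1 with day in siBach1 cells. Of the 9, slide as the block changed 4. It gave 1 higher and 3 lower at day 2 (9.9% and 11.9% of all probes), and a trend and robust prior gave 2 lower (7.61% of all). Requiring a 2-fold change as well, or counting 1 main probe per gene, left 1 higher in siControl cells with day in place of 2, 0 higher in siBach1 cells in place of 1, and 1 lower for siBach1 at day 0 in place of 2. Of all genes, 27.7% were higher on their main probe in siControl cells with day. For the 2-fold rule and the other main probe counts no share over the array was counted, so they cannot be set beside one. The count of lower probes for siBach1 at day 0 was also 1 under normexp, with no filter on dim probes, with only probes well above background on all 12 arrays, with the arrays of the comparison alone and under the methods' t-test, which gave 0 higher at day 0 in place of 1. Over all probes these settings called 2297, 1446 (of 56605), 2379 (of 24802), 2064 and 1690 lower, beside 2469 in the main fit. The t-test called 4.85% of all probes higher and 5.7% lower at day 0. When 1 array was left out, the counts ran from 1 to 2 higher with day in siBach1 cells, 1 to 2 higher and 1 to 2 lower for siBach1 at day 0, 0 to 1 higher and 0 to 2 lower at day 2, and 0 to 1 lower for the difference between days. Over all 29664 tested probes the counts in the same order ran from 6237 to 7489, from 1477 to 2668 and 1760 to 2618, from 949 to 1913 and 864 to 2067, and from 194 to 466.

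Signs turned for these values, none of which was called. Under quantile normalization the day change in siControl cells was -0.145 on A_52_P859153 and -0.081 on A_55_P2717907 (Tcf12), and that of Myod1 in siBach1 cells was 0.017. Under normexp the day change of the brightest Tcf12 probe in siBach1 cells was -0.046, and the difference between days was -0.002 on A_52_P859153 and -0.116 on A_55_P2717907. With 1 array left out, A_52_P859153 ran from -0.194 to 0.193 and from -0.053 to 0.669 for the day change in siControl and siBach1 cells and from -0.079 to 0.642 for the difference between days, and the brightest Tcf12 probe ran from -0.056 to 0.078 for the day change in siBach1 cells. For siBach1 at day 0 the ranges were -0.021 to 0.191 for Twist2, -0.071 to 0.024 for the brighter Tcf3 probe and -0.115 to 0.286 for Myog. At day 2 they were -0.285 to 0.078 for Twist2, -0.291 to 0.049 for the second Tcf3 probe, -0.111 to 0.023 for the brightest Tcf12 probe and -0.088 to 0.020 for A_52_P87395. For the difference between days they were -0.194 to 0.169 for Id3 and -0.361 to 0.002 for Twist2. Over all alternatives Myf6 ran from -0.20 to 0.11 for the day change in siBach1 cells and from -0.12 to 0.25 for siBach1 at day 2. The cause of these turns was not tested. Normexp with its offset shrinks changes of dim probes by its construction, as for Bhlhe41, Msc, the second Id2 probe, A_55_P2717907 and Mdfi.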
